A study of Homo sapiens with 12 samples.

Results

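The 49 genes described here carry cells from G1 into S phase and copy their DNA. They were taken by symbol from the 17786 genes of the count table and read in all 12 libraries of K562, a human line from chronic myelogenous leukaemia with erythroid features. All 49 were found, and all 49 were among the 13598 genes that passed the filter on low counts. Each of 3 groups held 4 libraries. The first was left untreated, the second received alpha-ketobutyrate (AKB) at 2 mM for 24 h, and the third received pyruvate at the same dose and time. All groups shared RPMI-1640 medium with serum, glutamine and antibiotics, and all came from the same line. The series' title calls AKB and pyruvate electron acceptors. They are short 2-oxo acids, AKB being the longer by a methylene group, and lactate dehydrogenase reduces both with NADH. Whether the 4 replicates were separate cultures is not stated in the labels, so each p-value measures the spread between these libraries alone, and that spread may be technical.

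Cyclin D with CDK4 or CDK6, and then cyclin E with CDK2, phosphorylate the retinoblastoma protein and free the E2F factors, which switch on most genes of DNA replication. The origin recognition complex, CDC6 and CDT1 load the MCM helicase on origins in G1, and CDC45 and the GINS complex complete it at the onset of S phase. Polymerases, the sliding clamp PCNA and its loader RFC then copy the DNA, with deoxynucleotides from ribonucleotide reductase, thymidylate synthase and thymidine kinase.

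Total counts per library ran from 15353200 to 21301073. All 9 erythroid or K562 markers were expressed, from 55.7 CPM for ALAS2 in its lowest library to 5844 CPM for HBG2 in its highest (CPM, counts scaled to library size after TMM). Of 6 markers of T cells, epithelium and fibroblasts, CD3E and CDH1 stayed at or below 0.241 CPM, CD3D, COL1A1 and COL1A2 at or below 9.11 CPM, and EPCAM stood at 80.4 to 106 CPM in every group. Pyruvate replicates 3 and 4 stood apart from the rest by GC content: their log2 CPM rose by 0.337 and 0.363 for every 10 percentage points of transcript GC, against −0.151 to 0.0049 in the other 10 libraries. Results are therefore also given after the trend with GC was removed from each library (the GC-content offset) and with these 2 libraries left out.

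The set was expressed well above the typical gene. Its median untreated level was 42.6 CPM per kilobase of transcript, against 7.65 over the 13047 tested genes with a known length. The helicase subunit MCM7 led at 252 CPM per kilobase, ahead of the sliding clamp PCNA at 190 and thymidylate synthase, TYMS, at 184. The cyclins CCND1 and CCNE2 closed the order at 2.92 and 6.20 CPM per kilobase, with CCNE1 at 15.8. Replicates lay close together in untreated and AKB cells. The median coefficient of variation of the 49 genes on the CPM scale was 3.42% and 4.18% there and 8.02% with pyruvate, against 5.64%, 5.78% and 15.0% for the 8663 tested genes of the same range of CPM. Genes were not matched for level within that range, 12.6 to 821 CPM, so levels may differ between the set and these genes. Transcript GC ran from 36.9% to 65.0% over the set, with a median of 50.3% against 48.1% over all genes tested.

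**Figure D1:**
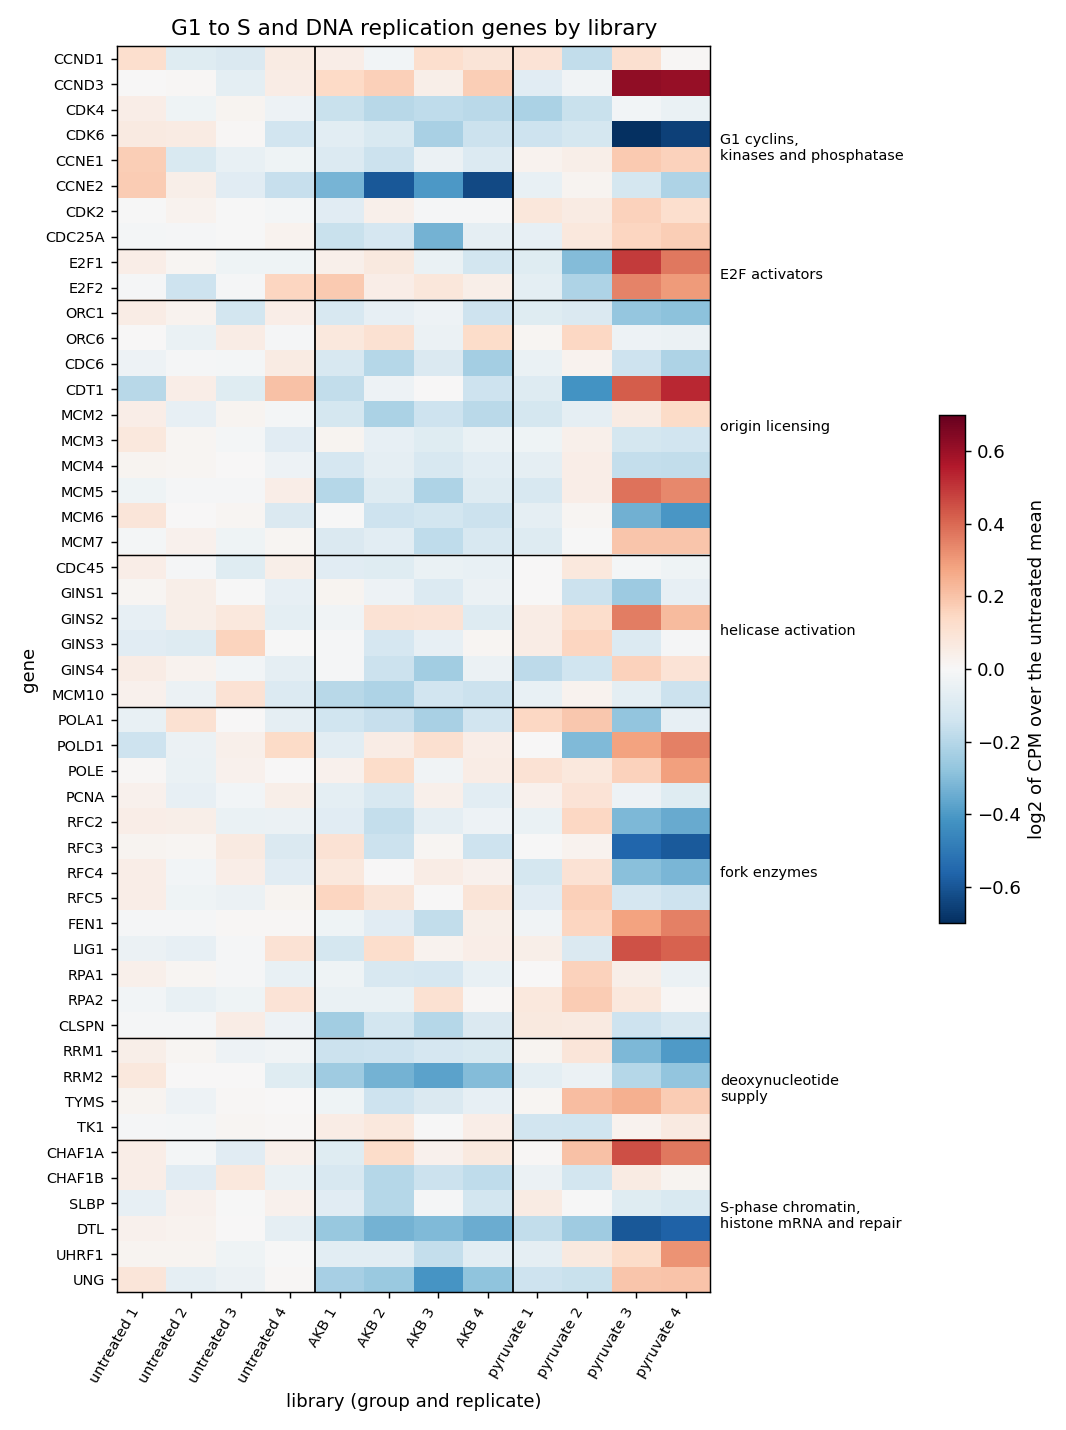
Each row is 1 of the 49 genes, ordered by role, and each column 1 of the 12 libraries; colour gives log2 of CPM over the untreated mean of that gene, red above 0 and blue below. CCNE2, RRM2 and DTL are blue in all 4 AKB libraries, while pyruvate replicates 3 and 4 differ from replicates 1 and 2 in many rows, from CCND3 (red) to CDK6 (blue).

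Promoter sequence is shown to set the letters of start regions beside the values of genes called with AKB. A call here means lower by edgeR with AKB than in untreated or pyruvate cells, over all 12 libraries or in both alternatives. The alternatives are the GC-content offset and leaving out pyruvate replicates 3 and 4. Of the genes with a stretch below, RRM2 alone passed by edgeR over all 12 libraries without the offset. RefSeq windows (build GRCh38.p14, 250 bases before to 50 after each start) were at hand for 42 of the 49 genes. E2F motifs, searched on both strands as TTTCCCGC, TTTGGCGC, TTTCGCGC and TTTGCCGC, were in the windows of 22 of these 42 genes (52.4%), against 1090 of the 27305 genes with a window (3.99%). CCAAT was in 26 (61.9%, against 39.7%) and the E-box CACGTG in 8 (19.0%, against 8.77%), the last 2 motifs being chosen after the sequences were seen. The CHR forms TTTGAA and TTCGAA, common in genes of G2 and mitosis, were in 3 of the 42 (7.14%, against 19.5%). A gene with several windows counts once, and forms may share bases. A match is a string of letters and no evidence of binding.

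The stretches below run 5′ to 3′ on the strand of the gene, with the searched motifs in capitals, and leave out bases that GENCODE 29 annotates as untranslated exon. That of RRM2 (chr2:10122619-10122729, plus strand) ends 9 bases before a RefSeq start, overlaps the coding sequence of a longer GENCODE transcript and holds CCAAT 2 times. That of CLSPN (chr1:35769979-35770128, minus strand) holds CCAAT 3 times on the other strand, as ATTGG. That of POLA1 (chrX:24693768-24693917, plus strand) holds an E2F form and ATTGG. That of UNG (chr12:109097968-109098117, plus strand) ends 54 bases before a RefSeq start and holds CCAAT 3 times and an E2F form.
RRM2: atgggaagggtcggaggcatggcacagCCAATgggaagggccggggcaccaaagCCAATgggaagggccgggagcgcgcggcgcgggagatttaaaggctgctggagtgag
CLSPN: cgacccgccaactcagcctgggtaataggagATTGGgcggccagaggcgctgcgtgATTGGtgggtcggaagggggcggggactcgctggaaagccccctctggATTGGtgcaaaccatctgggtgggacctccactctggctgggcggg
POLA1: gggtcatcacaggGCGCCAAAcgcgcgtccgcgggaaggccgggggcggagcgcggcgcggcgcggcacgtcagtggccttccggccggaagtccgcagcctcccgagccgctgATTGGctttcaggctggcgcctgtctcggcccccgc
UNG: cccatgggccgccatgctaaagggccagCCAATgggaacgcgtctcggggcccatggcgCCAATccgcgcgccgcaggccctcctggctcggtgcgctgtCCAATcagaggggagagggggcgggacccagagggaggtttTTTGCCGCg
The motifs of DTL, TYMS and CDK4 lie in annotated untranslated exon and are given by place only. No stretch or place is given for CCNE2, which says nothing about its motifs. DTL holds CCAAT starting 31 bases and TTTGGCGC starting 8 bases before its RefSeq start, TYMS holds TTTCCCGC on the other strand starting 39 bases before, and CDK4 holds CACGTG starting 216, 196 and 101 bases before.

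The first comparison asks how these genes stood after 24 h of AKB. RRM2 and CCNE2 fell, by 1.24-fold and 1.40-fold, and no gene of the set passed as higher. The other estimates lay mostly in the same direction: 36 of 49 estimates (73.5%) lay below 0, against 48.6% of all genes tested, and the median log2 change was −0.084, against 0.006. By edgeR's quasi-likelihood test (adjusted p below 0.05 over all 13598 genes) 2 of the 49 were lower, where 0.603% of all genes were, and 0 were higher, where 1.37% were. At an unadjusted p below 0.05 the counts were 11 lower (22.4%, against 5.13% of all genes) and 0 higher (against 8.07%), and DESeq2 gave 4 lower, where 1.44% of all genes were, and 0 higher, where 2.52% were. In 17 of the 49 (34.7%) all 4 AKB libraries lay below all 4 untreated libraries, against 8.41% of all genes, and in 0 did they lie above, against 8.74%. In each AKB library 35 to 37 of the 49 genes were below the untreated mean, with library medians from −0.090 to −0.074 on the log2 scale. Untreated libraries had medians from −0.011 to 0.022.

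Pyruvate replicates 3 and 4 enter this comparison through the filter, the scaling and the spread that the groups share. Left out, they gave 11 lower genes (22.4%, against 4.31% of all genes): CDK4, CCNE2, CDC6, MCM2, MCM10, POLA1, CLSPN, RRM1, RRM2, DTL and UNG. The GC-content offset gave 9 (18.4%, against 3.82%): CDK4, CCNE2, CDC25A, CDT1, MCM5, CLSPN, RRM2, DTL and UNG. The genes in both lists were CDK4, CCNE2, CLSPN, RRM2, DTL and UNG. The share of all genes that passed in both was not counted, so the overlap has no background beside it. By edgeR 0 genes of the set passed as higher with AKB under the offset (4.62% of all genes) or without the 2 libraries (4.86%). At an unadjusted p below 0.05 the offset gave 1 higher (2.04%, against 11.66% of all genes) and 18 lower (36.7%, against 11.10%). Without the 2 libraries 1 was higher (2.04%, against 12.88%) and 19 were lower (38.8%, against 12.61%).

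**Figure D2:**
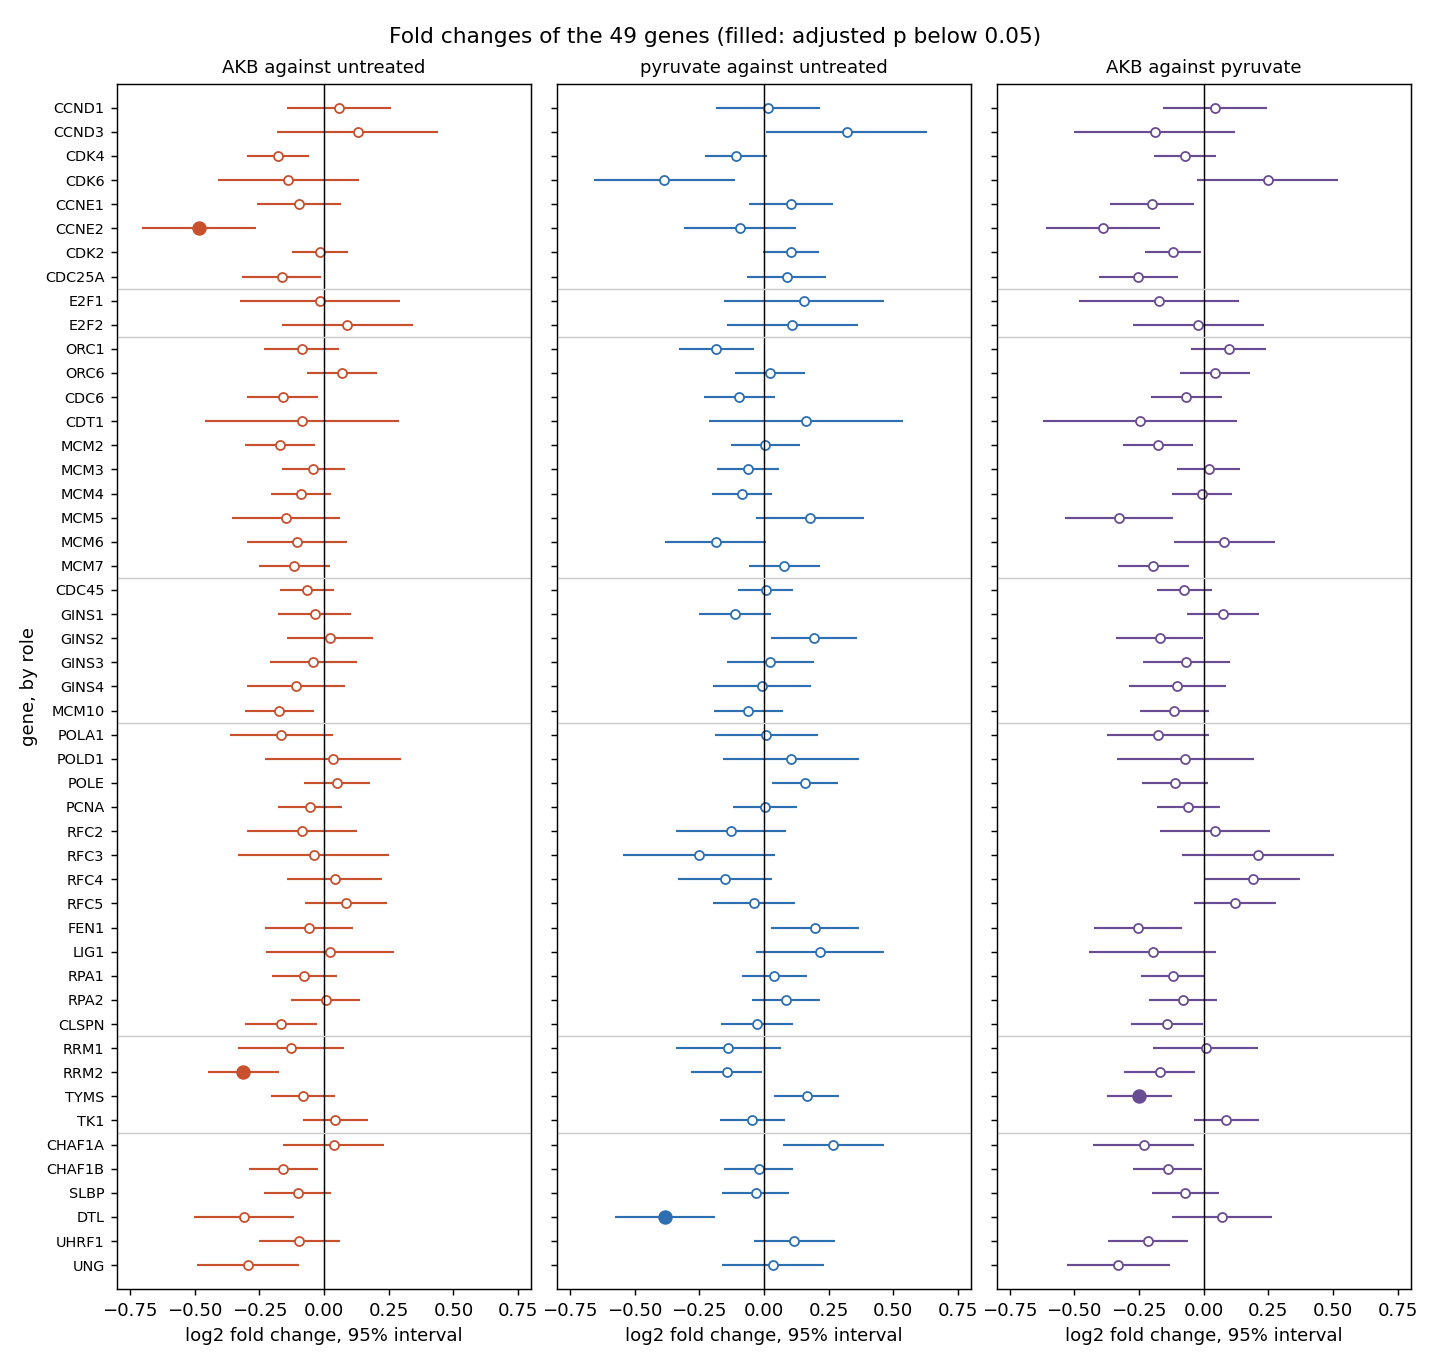
Log2 fold changes of the 49 genes with 95% intervals for the 3 comparisons, ordered by role from top to bottom; filled points passed an adjusted p of 0.05. Most points of AKB against untreated lie left of 0, with CCNE2 at −0.48 and RRM2 at −0.31 filled, while those of pyruvate against untreated lie on either side.

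Among the G1 cyclins and kinases, CCNE2 stood out. CCNE2 encodes an E cyclin that activates CDK2 at the G1 to S transition. It stood at 23.4, 21.2, 19.6 and 18.5 CPM in untreated cells and at 16.5, 13.7, 15.6 and 13.3 CPM with AKB. The groups did not overlap, and its level was among the lowest of the set. The log2 change was −0.48 (SE 0.10, 95% interval −0.70 to −0.26, adjusted p = 0.0324). The call was lost, with an adjusted p of up to 0.115, when AKB replicate 2, 3 or 4 or untreated replicate 1, 2 or 3 was left out. CCNE1, the other E cyclin, had a mean of 30.2 ± 0.965 CPM with AKB and 32.3 ± 2.82 CPM in untreated cells (SD, n = 4 each, adjusted p = 0.656). A difference between the responses of CCNE1 and CCNE2 was not tested.

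CDK4, the partner of the D cyclins, stood at 255, 242, 250 and 241 CPM in untreated cells and at 222, 216, 219 and 217 CPM with AKB. No AKB library reached the lowest untreated one. Its log2 difference of −0.18 (SE 0.055) had an adjusted p of 0.15, which became 0.00502 with the GC-content offset and 0.00836 when leaving out pyruvate replicates 3 and 4. CDC25A, the phosphatase that activates CDK2, ranged from 85.4 to 103 CPM with AKB and from 106 to 109 CPM in untreated cells (log2 −0.16, adjusted p = 0.337, and 0.0389 with the offset). CDK2 itself stood at 133 ± 4.24 CPM against 134 ± 1.59 CPM, with an interval from −0.12 to 0.09. CCND1, CCND3 and CDK6 also did not pass (adjusted p of 0.856, 0.78 and 0.717).

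The E2F activators did not pass the test. E2F2, which drives transcription of S-phase genes, stood at 42.5, 38.7, 42.5 and 47.4 CPM in untreated cells and at 48.6, 44.2, 45.3 and 44.0 CPM with AKB, so the groups overlapped. Its log2 difference was 0.09 (95% interval −0.16 to 0.34, adjusted p = 0.821). E2F1 gave −0.02 (−0.33 to 0.29).

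Origin licensing genes were lower in 9 of 10 estimates, none of which passed without the GC-content offset over all 12 libraries (edgeR, with 2 lower at an unadjusted p and 0 by DESeq2). With the offset CDT1 (log2 −0.20, adjusted p = 0.0108) and MCM5 (−0.21, adjusted p = 0.0152) were lower. MCM2, a subunit of the helicase, stood at 247, 229, 242 and 236 CPM in untreated cells and at 219, 204, 215 and 209 CPM with AKB. The groups did not overlap, as was also the case for MCM4, MCM5, MCM7 and the loader CDC6. The log2 difference of MCM2 was −0.17 (SE 0.062, adjusted p = 0.246, and 0.0178 without pyruvate replicates 3 and 4). With the offset MCM2 gave −0.24, the lowest estimate of the origin licensing genes there, and did not pass. CDC6 gave −0.16 (adjusted p = 0.291) and MCM7, the most abundant per length, −0.12 (adjusted p = 0.476). ORC6, of the origin recognition complex, gave the 1 estimate above 0, at 0.07, while ORC1 gave −0.09. CDT1 was variable among untreated libraries, from 99.3 to 131 CPM, and its interval without the offset was the widest of the group, −0.46 to 0.29.

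Of the 6 genes of helicase activation, MCM10, which helps to start the helicase, had the smallest p. It stood at 99.2, 94.6, 104 and 91.1 CPM in untreated cells and at 84.9, 83.9, 88.7 and 87.7 CPM with AKB, without overlap (log2 −0.17, SE 0.061, adjusted p = 0.226, and 0.0444 without pyruvate replicates 3 and 4). CDC45 and GINS1, GINS2, GINS3 and GINS4 lay between −0.11 and 0.02, and none of them passed.

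The enzymes of the fork were divided, with 7 of 13 estimates below 0 and a median log2 change of −0.041. CLSPN encodes claspin, which links the fork to the checkpoint kinase. It stood at 188, 188, 196 and 184 CPM in untreated cells and at 160, 173, 165 and 176 CPM with AKB. Every AKB library was below every untreated one. Its log2 difference was −0.17 (SE 0.064, adjusted p = 0.271), with an adjusted p of 0.0445 with the offset and 0.0236 without pyruvate replicates 3 and 4. POLA1, the catalytic subunit of the polymerase that makes primers, stood at 90.9, 101, 94.2 and 90.1 CPM in untreated cells and at 85.4, 84.2, 80.4 and 85.6 CPM with AKB. These groups did not overlap either, and the log2 difference was −0.17 (adjusted p = 0.48, and 0.0434 without pyruvate replicates 3 and 4). POLE and POLD1, of the leading and lagging strand polymerases, the clamp PCNA, the loaders RFC2 to RFC5, the nuclease FEN1, the ligase LIG1 and the single-strand binding proteins RPA1 and RPA2 lay between −0.08 (RFC2) and 0.08 (RFC5).

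In deoxynucleotide supply the fall was that of RRM2, the small subunit of ribonucleotide reductase, whose amount limits the enzyme in cycling cells. RRM2 stood at 364, 347, 347 and 326 CPM in untreated cells and at 291, 275, 267 and 281 CPM with AKB. The lowest untreated library was above the highest AKB library. The log2 change was −0.31 (SE 0.063, 95% interval −0.45 to −0.17, adjusted p = 0.0269). The call was lost, with an adjusted p of up to 0.0996, when AKB replicate 2, 3 or 4 or untreated replicate 1, 2 or 3 was left out. RRM1, the large subunit, stood at 309, 302, 293 and 295 CPM in untreated cells and at 270, 271, 277 and 278 CPM with AKB. Its groups did not overlap, with a log2 difference of −0.13 (adjusted p = 0.629, and 0.0334 without pyruvate replicates 3 and 4). TK1, the thymidine salvage kinase, gave 0.04, and TYMS −0.08 (adjusted p of 0.826 and 0.608).

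Among factors of S-phase chromatin and repair, DTL and UNG had the largest differences. DTL encodes the receptor by which a ubiquitin ligase removes CDT1 at PCNA. It stood at 174, 173, 171 and 163 CPM in untreated cells and at 142, 135, 138 and 134 CPM with AKB. The groups did not overlap. The log2 difference was −0.31 (SE 0.089, adjusted p = 0.119). It was −0.28 with the GC-content offset (adjusted p = 0.000566) and −0.31 without pyruvate replicates 3 and 4 (SE 0.037, adjusted p = 0.000731). UNG, the glycosylase that cuts uracil out of DNA, stood at 75.2, 67.8, 68.9 and 71.3 CPM in untreated cells and at 60.3, 59.2, 53.2 and 58.3 CPM with AKB. All 4 AKB libraries were lower, with a log2 difference of −0.29 (SE 0.091, adjusted p = 0.154, and 0.0229 with the offset and 0.00582 without the 2 libraries). CHAF1B, of the assembly factor that places histones on new DNA, gave −0.16 without overlap (adjusted p = 0.283). UHRF1, which reads hemimethylated DNA, gave −0.10, SLBP, which binds histone mRNA, −0.10, and CHAF1A 0.04.

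**Figure D3:**
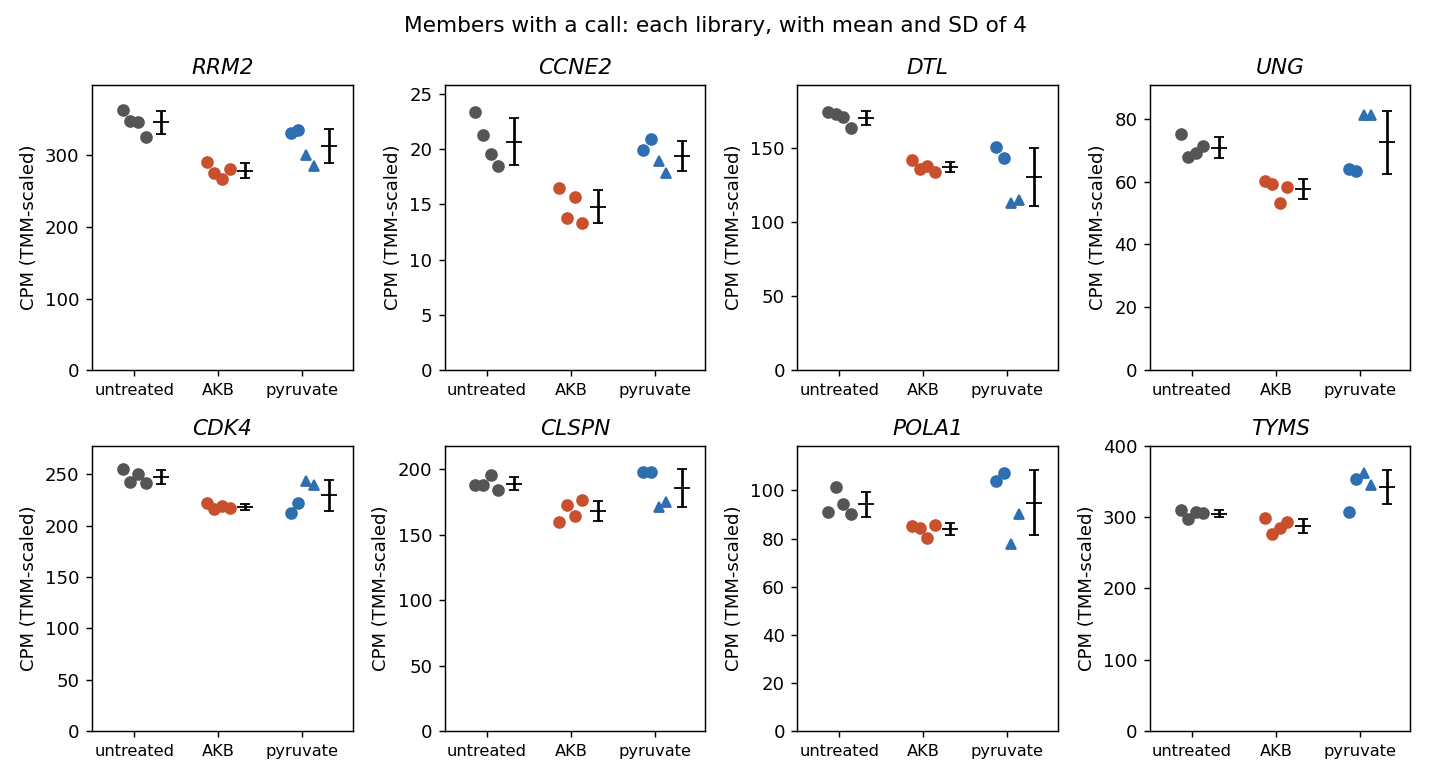
CPM of the 8 genes called in any comparison or in both alternatives, with 1 point per library, the mean as a bar and the SD of 4 libraries as the error bar; triangles are pyruvate replicates 3 and 4. RRM2 lies at 267 to 291 CPM with AKB, below the 326 to 364 CPM of untreated cells, and the triangles lie apart from the pyruvate circles in DTL, UNG and POLA1.

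Other genes of replication and of the cell cycle were read from the same fit. Of 33 further replication factors 1 was lower with AKB and 0 were higher (2 and 0 at an unadjusted p, and 1 and 0 by DESeq2), with a median log2 change of −0.069. Over all genes 0.603% were lower and 1.37% higher, with 5.13% and 8.07% at an unadjusted p and 1.44% and 2.52% by DESeq2. The replication factor that passed was POLE3, a small subunit of polymerase epsilon, at 179 ± 4.53 CPM in untreated and 150 ± 7.30 CPM in AKB cells (log2 −0.25, adjusted p = 0.0352). CDC7, the kinase that fires origins, gave −0.22 (adjusted p = 0.469), with 0.032 under the offset and 0.036 without pyruvate replicates 3 and 4. None of 11 further genes of deoxynucleotide metabolism passed (0 higher and 1 lower at an unadjusted p, 0 and 1 by DESeq2), RRM2B giving −0.28 (adjusted p = 0.436, and 0.0167 and 0.0245 in the same alternatives). None of 26 further regulators of G1 and of E2F passed (2 higher and 3 lower at an unadjusted p, 0 and 1 by DESeq2). Among them the repressor E2F7 gave −0.28 and the retinoblastoma gene RB1 −0.30, and CDC25B gave 0.24, each passing under the offset and also when pyruvate replicates 3 and 4 were left out. Without either change edgeR passed none of these 3, and DESeq2 passed E2F7. CDKN2A and CDKN2B were not analysed here.

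Of 27 genes of G2 and mitosis 0 passed (1 higher and 0 lower at an unadjusted p, against 8.07% and 5.13% of all genes, and 0 by DESeq2). Their median log2 change with AKB was 0.012, with 17 of 27 estimates above 0, against 13 of 49 in the G1 to S set. The proliferation marker MKI67 stood at 285 ± 33.1 CPM in untreated and 294 ± 32.3 CPM in AKB cells. A difference between the 2 sets was not tested. In bulk RNA fewer cells in a phase and less mRNA per cell cannot be told apart.

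The second comparison sets pyruvate against the same 4 untreated libraries. DTL was the 1 gene of 49 that fell (2.04%, against 0.927% of all genes), and 0 rose, where 1.02% of all genes did (edgeR, with 6 higher and 4 lower at an unadjusted p, or 12.2% and 8.16% against 15.0% and 13.9% of all genes, and 3 higher and 2 lower by DESeq2, where 8.06% and 5.33% of all genes were). The median log2 change of the set was 0.008, against −0.008 over all genes. DTL stood at 151, 143, 113 and 115 CPM with pyruvate, below every untreated library, with replicates 3 and 4 lowest. The log2 change was −0.38 (SE 0.089, 95% interval −0.58 to −0.19, adjusted p = 0.0496). It was −0.24 with the GC-content offset (adjusted p = 0.00288) and −0.21 without pyruvate replicates 3 and 4 (adjusted p = 0.0615). Leaving out any 1 library other than pyruvate replicate 1 or 2 also ended the call, with an adjusted p of up to 0.155.

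CDK2 and POLE were higher in every pyruvate than in every untreated library (4.08% of the set, against 4.89% of all genes), and DTL was lower in all (against 6% of all genes). POLE, the catalytic subunit of the leading strand polymerase, ranged from 254 to 294 CPM with pyruvate and from 234 to 246 CPM without (log2 0.16, adjusted p = 0.115). RRM2 stood at 331, 336, 301 and 286 CPM and CCNE2 at 19.9, 20.9, 18.9 and 17.8 CPM. The former gave −0.14 (95% interval −0.28 to −0.01, adjusted p = 0.16) and the latter −0.09 (−0.31 to 0.13, adjusted p = 0.532). With the GC-content offset CDK4, CDK6, CDT1 and DTL were lower (8.16%, against 4.09%) and 0 higher (against 5.39%). At an unadjusted p 4 were higher with the offset (8.16%, against 15.0% of all genes) and 9 lower (18.4%, against 12.9%). The sign of CDT1 turned: its log2 difference was 0.16 without the offset (adjusted p = 0.523), −0.20 with it (adjusted p = 0.0133) and −0.24 without pyruvate replicates 3 and 4 (adjusted p = 0.364). Other signs turned as well. With the offset CCNE2 gave 0.18, and E2F1 and E2F2, above 0 without it, gave −0.16 and −0.08. None of these passed. Without pyruvate replicates 3 and 4 edgeR called 0 lower (against 0.56%) and 0 higher (against 0.151%). At an unadjusted p that fit gave 6 lower (12.2%, against 7.03% of all genes) and 1 higher (2.04%, against 7.10%). Pyruvate replicates 1 and 2 alone lay above all untreated libraries in 4 genes (8.16%, against 11.4%), CDK2, POLA1, POLE and CLSPN, and below them in 7 (14.3%, against 11.3%), CDK4, E2F1, MCM2, GINS4, TK1, DTL and UNG.

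Pyruvate replicates 3 and 4 lay above all 10 other libraries in 18 of the 49 genes (36.7%, against 23.8% of all genes tested), whose median GC was 56.3%. They lay below all 10 in 11 (22.4%, against 28.2%), whose median GC was 44.5%. The spread was wide: the log2 ratio of replicates 3 and 4 over 1 and 2 ran from −0.58 to 0.72. CCND3, a D cyclin of 56.2% GC, stood at 159 and 165 CPM in replicates 1 and 2 and at 259 and 256 CPM in 3 and 4. CDK6, of 39.5% GC, stood at 467 and 474 CPM and then at 311 and 328 CPM. Over the 49 genes that ratio and GC had a Spearman correlation of 0.79, a description over genes that share libraries. UNG stood at 64.1 and 63.5 CPM in replicates 1 and 2 and at 81.1 and 81.3 CPM in 3 and 4, and E2F1 at 41.3 and 35.4 CPM and then at 61.4 and 56.6 CPM. The log2 change of AKB against untreated also rose with GC. Its Spearman correlation with GC was 0.30 over the 49 genes and 0.26 over all genes tested with a GC value. Over the 49 genes it was 0.31 without pyruvate replicates 3 and 4, and −0.05 with the offset. The part of GC content in the differences of either acid was not tested.

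**Figure D4:**
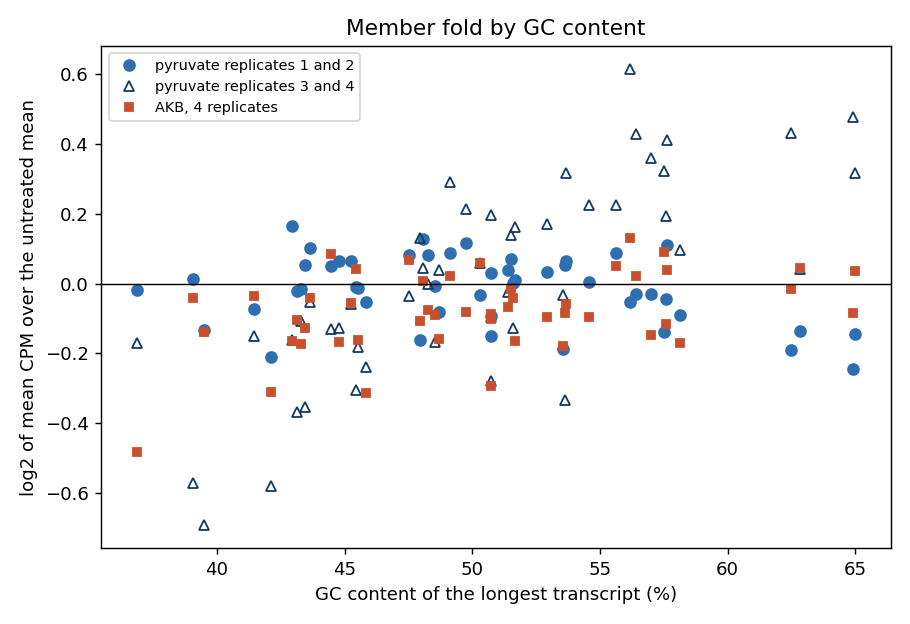
Log2 of mean CPM over the untreated mean for each of the 49 genes by the GC content of its longest transcript, for pyruvate replicates 1 and 2 (circles), pyruvate replicates 3 and 4 (triangles) and the 4 AKB libraries (squares). The triangles climb with GC, as in the Spearman correlation of 0.79 between GC and the log2 ratio of that pair over the other pair. The AKB squares lie mostly below 0 along the axis, and the log2 change with AKB has a Spearman correlation with GC of 0.30.

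The third comparison sets the 2 acids against each other at the same dose and time, the 1 pair of compounds available. TYMS, which makes thymidylate, was the 1 gene of 49 that was lower with AKB than with pyruvate (2.04%, against 1.19% of all genes), and 0 were higher, where 1.94% of all genes were (edgeR, with 1 higher and 16 lower at an unadjusted p, or 2.04% and 32.7% against 12.2% and 12.1% of all genes, and 0 higher and 11 lower by DESeq2, where 4.68% and 6.49% of all genes were). It stood at 298, 276, 285 and 293 CPM with AKB and at 307, 354, 362 and 345 CPM with pyruvate, around the 298 to 310 CPM of untreated cells. Against untreated cells TYMS gave −0.08 with AKB and 0.17 with pyruvate (edgeR, adjusted p of 0.608 and 0.104). DESeq2 passed TYMS as higher with pyruvate. The acids did not overlap, although pyruvate replicate 1 lay close to the AKB libraries. The log2 difference was −0.25 (SE 0.058, 95% interval −0.37 to −0.12, adjusted p = 0.0437). It was −0.24 with the offset (adjusted p = 0.00574) and −0.20 without pyruvate replicates 3 and 4 (adjusted p = 0.0669). Leaving out any 1 library other than pyruvate replicate 1 or 2 ended the call, with an adjusted p of up to 0.123, as did scaling by library size alone, no filter and a fit of the 8 libraries alone.

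In the set as a whole 35 of 49 estimates lay below 0, with a median log2 difference of −0.101 against 0.025 over all genes. Scaled by library size alone, 34 of 49 (69.4%) lay below 0, against 43.6% of all genes. With DESeq2 size factors in edgeR 36 (73.5%) did, against 48.9%. In 8 genes (16.3%, against 4.54% of all genes) every AKB library was below every pyruvate library: CCNE1, CCNE2, CDK2, CDC25A, CDC45, TYMS, UHRF1 and UNG. No gene had every AKB library above (0 of 49, against 7.08%). Against pyruvate replicates 1 and 2 alone AKB lay below in 19 (38.8%, against 14.3%) and above in 3, CCND3, E2F2 and TK1 (6.12%, against 15.6%). CCNE2 gave −0.39 (95% interval −0.61 to −0.17, adjusted p = 0.0572), with −0.61 under the offset (adjusted p = 0.00367) and −0.47 without the 2 libraries (adjusted p = 0.0467). Against untreated cells, the offset moved CCNE2 from −0.09 to 0.18 with pyruvate and from −0.48 to −0.43 with AKB. UNG gave −0.33 (−0.53 to −0.13, adjusted p = 0.0664) and RRM2 −0.17 (−0.31 to −0.03, adjusted p = 0.136). UNG passed with the offset but not without the 2 libraries. Its estimate ran from −0.392 to −0.145 over the alternatives, and was smallest in size without the 2 libraries. RRM2 passed in both alternatives, at −0.22 with the offset (adjusted p = 0.00346) and −0.26 without the 2 libraries (adjusted p = 0.0193).

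The GC-content offset gave 11 lower genes (22.4%, against 7.41% of all genes) and 0 higher (against 7.16%, edgeR). At an unadjusted p the offset gave 19 lower (38.8%, against 16.0%) and 2 higher (4.08%, against 14.4%). Leaving out the 2 libraries gave 5 lower (10.2%, against 1.84%) and 1 higher, TK1 (2.04%, against 2.52%). CCNE2, POLA1, CLSPN and RRM2 were lower in both alternatives, where the share of all genes was again not counted. POLA1 at 104, 107, 77.8 and 90.4 CPM with pyruvate gave −0.18 over all libraries (adjusted p = 0.255), −0.27 with the offset (adjusted p = 0.00698) and −0.33 without the 2 libraries (adjusted p = 0.011). CLSPN, at 198, 198, 171 and 175 CPM with pyruvate, gave −0.14 (adjusted p = 0.204), −0.20 (adjusted p = 0.00745) and −0.23 (adjusted p = 0.023). For both genes pyruvate replicates 3 and 4 were the lowest of that group. In CLSPN they lay within the range of AKB.

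DTL and CDK4 passed in none of these fits. DTL gave 0.07 (95% interval −0.12 to 0.27, adjusted p = 0.631) and CDK4 −0.07 (−0.19 to 0.05, adjusted p = 0.435). These intervals leave room for differences in either direction and do not show that the acids act alike. Over the 49 genes the bounds of the intervals ran from −0.62 to 0.52, with a median width of 0.316. Outside the set the polymerase epsilon subunit POLE4 was lower with AKB than with pyruvate (21.0 ± 1.06 against 27.7 ± 3.70 CPM, log2 −0.40, adjusted p = 0.0487). TOP1, which relaxes DNA ahead of the fork, gave −0.16 (adjusted p = 0.144) and passed in both alternatives, at −0.28 and −0.25. NME1 was also lower (log2 −0.28, adjusted p = 0.0456), and NME2 was higher with pyruvate than in untreated cells (0.58, adjusted p = 0.0486), but the 2 are near-identical neighbours whose reads are uncertain.

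The authors' deposited table of untreated over AKB gave 3 of the 49 genes as lower with AKB and 0 as higher at an adjusted p below 0.05 (4.9% of its genes passed in either direction). The lower genes were CCNE2 (log2 fold change 0.56, untreated over AKB), UNG (0.30) and CDK4 (0.23). RRM2 did not pass in the authors' deposited table (0.26, adjusted p = 0.122). The authors' deposited table of untreated over pyruvate gave 2 of the 49 as higher with pyruvate and 9 as lower (12% of its genes passed in either direction). CDK2 and TYMS were higher, and CDK4, CDK6, CDT1, DTL, GINS4, MCM4, ORC1, RFC4 and RRM1 were lower. MCM4 stood at 0.47, CDT1 at 0.44 and DTL at 0.40, untreated over pyruvate. CDT1 was thus lower with pyruvate there, whereas its estimate by edgeR without the offset was higher. The authors' deposited table of AKB over pyruvate gave 1 as higher, RFC4, and 7 as lower with AKB (10% of its genes passed in either direction): CCNE2, CDC25A, CDK2, FEN1, TYMS, UHRF1 and UNG.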

How the data were processed

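Messenger RNA of 12 K562 libraries was counted. The authors deposited 1 table of estimated counts by gene, from Salmon 1.2.1 per the submitters' processing notes, and all its values were whole. For its genome build, annotation and settings nothing was given in the sources used here. Comparison tables from the authors hold, per the file headers, a mean normalised signal, a log2 fold change with its error, a test score and raw and adjusted p-values (R 3.6.3 and DESeq2 1.26.0, per the submitters' processing notes), with the first-named group over the second.

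Here R 4.3.3 and edgeR 4.0.16 were used. Genes were kept by filterByExpr (minimum count of 10), scaled by TMM and tested by edgeR's quasi-likelihood test over all 12 libraries with 1 term per group, with Benjamini-Hochberg adjustment over 13598 genes and a threshold of 0.05; 95% intervals use its degrees of freedom. Levels per kilobase, GC content and gene models come from the longest transcript in GENCODE 29 (GRCh38). The GC-content offset is a lowess trend (span 0.3) of each library on transcript GC. Alternatives were DESeq2 1.42.0, limma-voom 3.58.1, other scalings and filters, fewer libraries and a replicate block. The fit was tested on simulated data. The genes, lists and alternatives were chosen with earlier results of these data known. Full statistics are given for genes called in any of the 3 comparisons, for genes called in 1 comparison and direction both with the offset and without pyruvate replicates 3 and 4, and for the gene of smallest p with AKB in each role; of other lists, for genes called by either rule (at most 4 a list). MKI67 and other genes named beyond this were chosen after their values were seen. Promoter stretches are at least 60 bases long and hold a motif. The result of 1 marker list is not reported here.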

Additional observations from a re-analysis of the deposited data

Results flagged for a closer look

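Among 147 groups of 4 libraries, 1 for each of the 49 genes and 3 groups, 3 held a library far from the other 3, where chance gives about 1 in 20. ORC1, of the origin recognition complex, was lowest in untreated replicate 3 at 163.3 CPM, against 181.5 to 184.7 CPM in the other 3. MCM6, a helicase subunit, was highest in AKB replicate 1 at 313.4 CPM, against 282.4 to 286.7 CPM. UHRF1, a reader of hemimethylated DNA, was lowest in AKB replicate 3 at 163.8 CPM, against 174.3 to 174.8 CPM. By edgeR none of these 3 genes passed in the 3 comparisons over all 12 libraries, while DESeq2 passed UHRF1 as lower with AKB than with pyruvate. The authors' deposited tables passed UHRF1 in AKB over pyruvate (adjusted p = 0.039) and ORC1 in untreated over pyruvate (adjusted p = 0.0348). TYMS differed between the treatments, with a log2 difference of −0.25 for AKB against pyruvate (adjusted p = 0.0437, edgeR), its values being given above.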

How the results depend on the processing

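All values here are counts at an adjusted p of 0.05, unless a median is named. With AKB against untreated, 268 genes and 2 of the 49 (lower) were called. DESeq2 called 539 and 4, the GC-content offset 1148 and 9, leaving out pyruvate replicates 3 and 4 gave 1278 and 11, and the 8 libraries alone 1339 and 13. With pyruvate against untreated (265 genes, 1 lower), DESeq2 called 1821 genes, 3 higher and 2 lower. The offset called 1289 and 4 lower, no filter 152 and 0, leaving out the 2 libraries 99 and 0, and the 8 libraries 16 and 0. With AKB against pyruvate (426 genes, 1 lower, median log2 −0.101), DESeq2 called 1519 and 11 lower, DESeq2 size factors in edgeR 2 lower, and library size alone 0. The offset called 1980 and 11 (median −0.073), no filter 214 and 0, leaving out the 2 libraries 5 lower and 1 higher, and the 8 libraries 6 and 0 (median −0.125). Leaving out each library in turn gave 92 to 357 genes, 0 to 3 lower and medians from −0.093 to −0.065 for AKB against untreated. For pyruvate against untreated it gave 32 to 3611 genes, 0 to 6 higher, 0 to 6 lower and medians from −0.016 to 0.027. For AKB against pyruvate it gave 68 to 2111 genes, 0 to 2 higher, 0 to 10 lower and medians from −0.118 to −0.086. The cause was not tested. The median of the 49 stayed below 0 in every alternative run for both comparisons of AKB and took either sign for pyruvate against untreated.

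Of 12 same-numbered pairs 6 had a correlation of deviations over 0.1 (range −0.16 to 0.292), as had 10 of 36 other pairs, and in 9 of 24 cases a library correlated best with its own number. Not every pair passed 0.1, so the numbers were not taken to pair the libraries. With the replicate block 158 genes were called for AKB against untreated, 565 for pyruvate against untreated and 356 for AKB against pyruvate. In the last, TYMS did not pass under the block (adjusted p = 0.061) and CCNE2 did (adjusted p = 0.0476); the calls of CCNE2, RRM2 and DTL in the other comparisons held. The replicate block with the offset called 930 genes and 8 lower, 1437 and 5 lower, and 1974 and 10 lower (median −0.071) in the 3 comparisons in turn.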
